A study of Pinus pinaster with 24 samples.

Results

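Ammonium was compared with water in the root meristem of maritime pine (Pinus pinaster) seedlings by sequencing RNA from laser-microdissected tissue. The comparison takes the 6 meristem libraries of 24 in all, chosen by the tissue and treatment in their labels, 3 from seedlings given 3 mM ammonium chloride and 3 from seedlings given water. The other libraries come in groups of 6 from root cap, developing vessels and developing cortex of root tips under the same treatments. All seedlings were of 1 provenance (Segura-Alcaraz) and 1 month old. All had received a nutrient solution without a nitrogen source and acclimated for 3 days, then 80 mL of water or of the ammonium solution, and roots were taken 24 h later. Each group has 1 library from each of the experiments numbered 1, 3 and 4, and neither the number of seedlings behind a library nor whether an experiment was its own batch of plants is given in the labels. P-values therefore reflect only how far these libraries spread, part of which may be technical.

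Ammonium is a nitrogen source that roots take up through ammonium transporters and assimilate mainly by glutamine synthetase and glutamate synthase, and conifers often grow well on it. The root apical meristem is the zone of dividing cells behind the root cap, and its descendants become the vascular tissue and the cortex, so it borders each of the other dissected tissues. The labels state that the dissected areas matched the named tissues only approximately.

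The table lists 47118 transcript identifiers, 0 of which come with a gene name, so no meristem marker and no ammonium transporter or glutamine synthetase transcript could be looked up, and transcripts appear under their identifiers. Values are a scaled signal: reads of a transcript divided by a scaled size of its library. The 6 meristem libraries held 67135340 to 73495393 recovered reads, and 3 reads corresponded to a value of 0.0325 to 0.0418. Reads come from amplified cDNA without molecular identifiers, so this floor covers counting error only. Differences are given on the scale of log2(value + 1), which understates the change of low transcripts. Of all transcripts, 46960 reached a value of 1 in at least 3 of the 24 libraries and were tested.

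The 3 ammonium libraries differed from each other in the tissue they resembled most. Each library was correlated across transcripts with the mean of the water libraries of each tissue, made without its own experiment. The water libraries of experiments 1, 3 and 4 correlated best with meristem, at r = 0.953, 0.957 and 0.950. So did ammonium 1, the ammonium library of experiment 1, at r = 0.957, and its next best match was developing cortex at 0.813. Ammonium 3, that of experiment 3, correlated best with developing cortex, at r = 0.948, then with root cap at 0.869 and with meristem at 0.859. Ammonium 4, that of experiment 4, correlated best with root cap, at r = 0.898, then with meristem at 0.865 and with cortex at 0.791. So 1 of 3 ammonium libraries matched its labelled tissue best. The part of the ammonium libraries of experiments 3 and 4 in the results that follow was not tested. Values without both set ammonium 1 alone against 3 water libraries. They are given for the lists of neighbouring tissues, the limma and range counts, the first 7 transcripts described and the 4 most abundant. All points of such a correlation share 1 library and its depth, and it is a description.

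**Figure D1:**
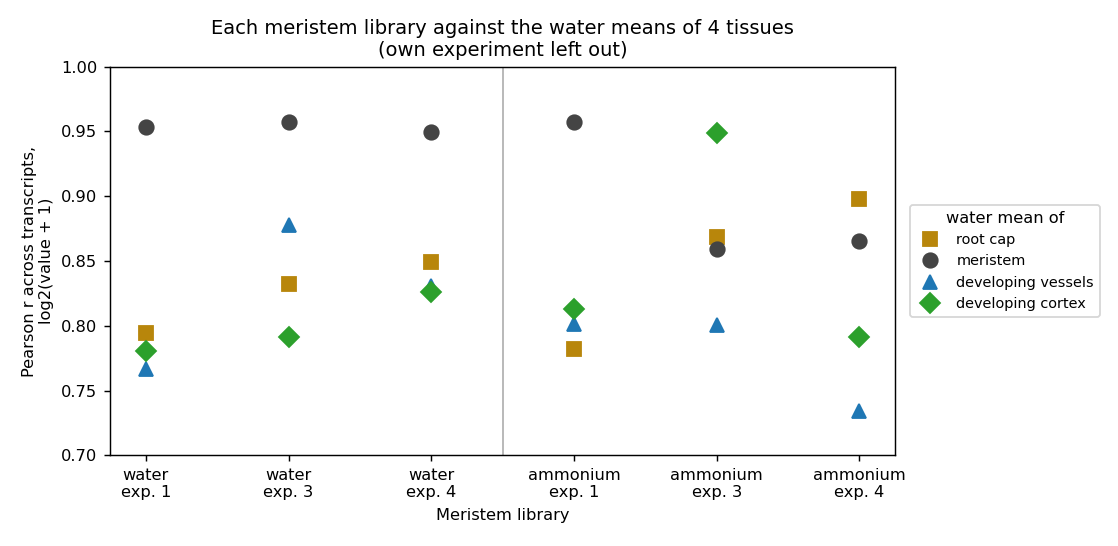
Pearson correlation across 46960 transcripts, on the log2(value + 1) scale, of each of the 6 meristem libraries with the water mean of each tissue, made from the other 2 experiments. The meristem mean is the best match of the 3 water libraries and of ammonium 1, whereas ammonium 3 lies closest to developing cortex (0.948) and ammonium 4 to root cap (0.898).

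Distances between libraries gave the same order. Any pair of water libraries differed by a root mean square of 0.62 to 0.67 on the log2 scale over all transcripts. Ammonium 1 differed from the water libraries by 0.59, 0.60 and 0.64, no more than these differed from each other. That of experiment 3 differed from the water libraries of experiments 1, 3 and 4 by 1.17, 1.09 and 0.85, and that of experiment 4 by 0.98, 1.02 and 0.88. The ammonium libraries lay 1.06 to 1.10 apart from one another, further than the water libraries did. The root mean square SD within a group was 0.77 for the ammonium libraries and 0.45 for the water libraries, against 0.38 to 0.67 in the 6 groups of the other tissues.

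Transcripts of neighbouring tissues were then read in each meristem library. The lists were made from the 9 water libraries of root cap, developing vessels and developing cortex alone, and so used no meristem library. Each holds the 200 transcripts that exceeded both other tissues by the widest margin among those at least 2 higher on the log2 scale (limma adjusted p under 0.05). Such transcripts numbered 300 for cortex, 561 for root cap and 1310 for vessels. In bulk RNA, fewer cells of a type and less RNA per cell cannot be told apart.

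The cortex list averaged 1.66, 1.36 and 3.24 on the log2(value + 1) scale in the water libraries of experiments 1, 3 and 4. With ammonium it averaged 2.07, 4.78 and 0.74. The ammonium library of experiment 3 was the highest of the 6 and that of experiment 4 the lowest, so the groups overlapped. In experiment 3, 86% of the list stood above all 3 meristem water libraries, against 10% in ammonium 1 and 4.5% in ammonium 4. Cortex water libraries themselves averaged 5.45 to 6.26 on this list. Ammonium minus water averaged 0.44 over the list, -0.68 once ammonium 3 was left out, and -0.021 without ammonium 3 and 4.

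The root cap list was high in a different library. It averaged 1.56, 1.68 and 2.05 in the water libraries and 0.72, 0.82 and 4.30 with ammonium, in the order of experiments 1, 3 and 4. Ammonium 4 stood above every water library, with 90% of the list above all 3 of them, while ammonium 1 and ammonium 3 stood below every water library. Root cap water libraries averaged 5.79 to 7.43. Ammonium minus water averaged 0.19, -0.99 once ammonium 4 was left out, and -1.04 without ammonium 3 and 4.

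The vessel list separated the water libraries more than the treatments. It averaged 1.09, 3.14 and 0.77 with water and 1.70, 1.09 and 0.59 with ammonium, against 5.45 to 6.21 in vessel water libraries. The water library of experiment 3 was the highest of the 6. The mean difference was -0.54, but 0.20 without that water library and 0.040 without ammonium 3 and 4. Over single transcripts, 152 of 200 cortex list members, 135 of 200 root cap list members and 35 of 200 vessel list members had a higher mean with ammonium, against 51.5% of all tested transcripts. The median log2 differences of the 3 lists were 0.46, 0.24 and -0.51, beside 0.01 for all tested transcripts, and 0 members passed the threshold.

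**Figure D2:**
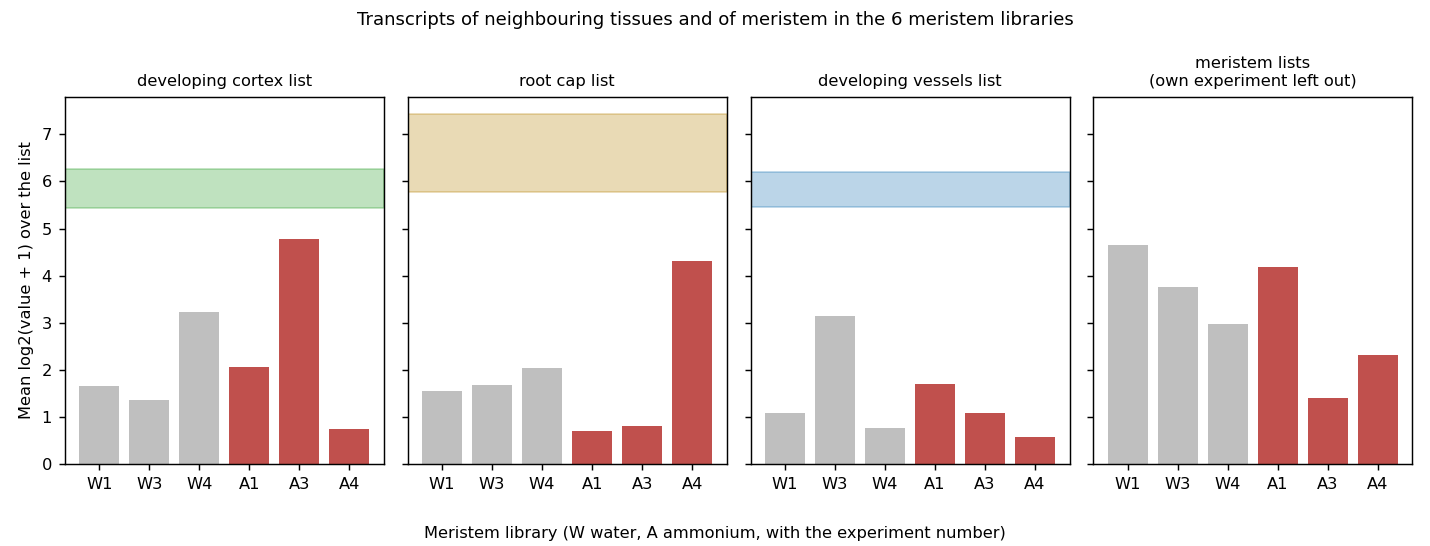
Mean log2(value + 1) over the cortex, root cap and vessel lists (200 transcripts each) and over the meristem lists (100 transcripts each) in the meristem libraries with water (grey, W) and ammonium (red, A), numbered by experiment. Bands give the range of the list in the 3 water libraries of its own tissue; the cortex list is highest in ammonium 3 (4.78), the root cap list in ammonium 4 (4.30) and the vessel list in water 3 (3.14).

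Transcripts typical of meristem stood lower with ammonium in each experiment, by unequal amounts. For each experiment a list of 100 transcripts was made from the water libraries of the other 2 experiments, taking those with the greatest smallest difference of meristem over the other tissues. The list was then read in the experiment left out, so neither library read had entered it. In experiment 1 the list averaged 4.65 with water and 4.19 with ammonium, and 67 of 100 members were lower with ammonium (median -0.38). In experiment 3 it averaged 3.77 and 1.41, and 96 of 100 were lower (median -2.53). In experiment 4 it averaged 2.98 and 2.32, and 72 of 100 were lower (median -0.71). Over all tested transcripts the median differences in experiments 1, 3 and 4 were -0.02, 0 and 0. How far such a list varies between water libraries was not measured, so the smaller falls cannot be told from library spread. In experiment 3 the ammonium level was near that of cortex (1.20) and vessel (1.33) water libraries of the same experiment and under that of root cap (2.33). In experiments 1 and 4 it stayed above root cap water (3.50 and 1.69). The mean difference over the 3 experiments was -1.16, and -0.56 without experiment 3. The lists are not separate evidence, since they share 39 to 53 of 100 members in pairs.

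The number of transcripts that left the water range also differed between the ammonium libraries. Each library was set against the meristem water libraries of the other 2 experiments, and transcripts at least 1 above or below both on the log2 scale were counted. The water libraries of experiments 1, 3 and 4 had 625, 871 and 1256 transcripts above and 752, 457 and 452 below. The ammonium library of experiment 1 had 663 above and 708 below (1.41% and 1.51% of those tested), within the range of the water libraries. That of experiment 3 had 4312 above and 2964 below (9.18% and 6.31%), and that of experiment 4 had 4465 above and 2470 below (9.51% and 5.26%).

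The transcripts that left the range differed between libraries in the neighbouring tissue of their highest water mean. Each transcript was assigned to whichever of root cap, vessels and cortex had its highest water mean, by any margin and leaving out meristem. This gave 28.3% to cortex, 33.2% to root cap and 38.6% to vessels over all tested. Of those above the range in ammonium 3, 71.4% were highest in cortex and 15.1% in root cap. In ammonium 4, 54.2% were highest in root cap and 36.2% in cortex. In ammonium 1 the shares were 39.4% cortex, 37.3% root cap and 23.4% vessels. Of those below the range, 69.5% in ammonium 3 and 58.2% in ammonium 1 were highest in root cap. In ammonium 4, 52.4% of those below were highest in vessels. Single water libraries leaned too: 80.9% of the transcripts above the range in water 3 were highest in vessels, and 71.0% of those in water 4 in cortex.

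**Figure D3:**
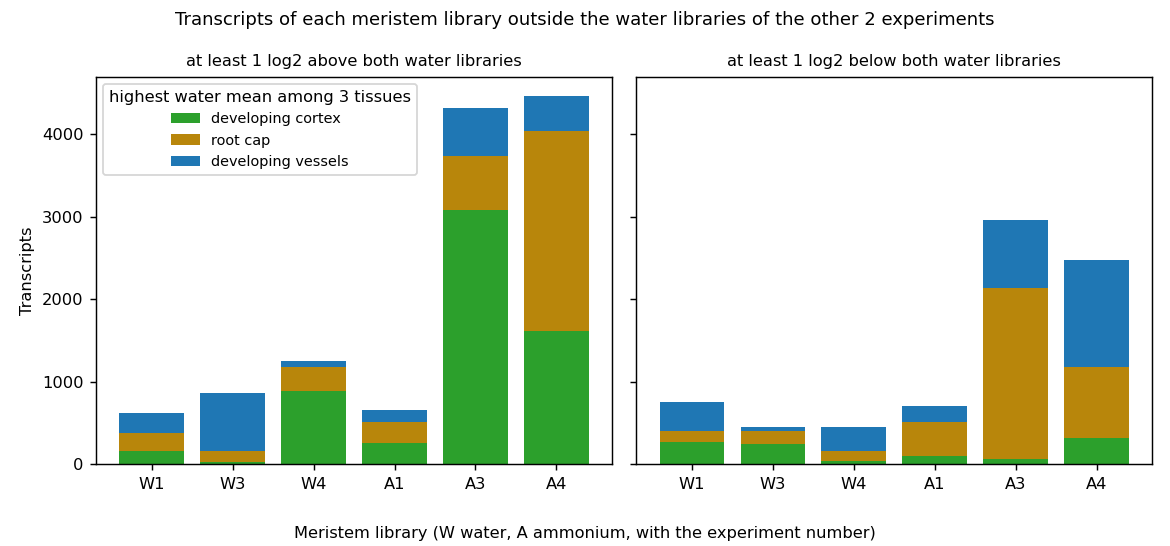
Number of transcripts in each meristem library (W water, A ammonium, numbered by experiment) at least 1 log2 above (left) or below (right) both meristem water libraries of the other 2 experiments, coloured by the tissue with the highest water mean among root cap, vessels and cortex. Ammonium 1 (663 above) lies within the 625 to 1256 of the water libraries, and ammonium 3 (4312) and ammonium 4 (4465) lie above them.

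No transcript passed the threshold between ammonium and water in the meristem. In limma, with 8 groups over all 24 libraries, 0 of 46960 transcripts (0%) had a Benjamini-Hochberg adjusted p under 0.05, and the lowest adjusted p was 0.113. At an unadjusted p under 0.05 there were 5626 (12%), of which 2672 (5.69%) were higher and 2954 (6.29%) lower with ammonium. This number depended on the spread estimate. It was 1956 in limma on the 6 meristem libraries alone, 3177 with weights set per group of libraries and 6224 with weights set per library. Over all transcripts the median half-width of the 95% interval was 0.64 log2, from a spread estimate that tighter groups share. With the recovered reads, edgeR's quasi-likelihood test called 0 (0%) as well, and 6840 (14.6%) had an unadjusted p under 0.05.

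DESeq2 on the same reads called 761 transcripts (1.62%), 556 higher (1.18%) and 205 lower (0.437%), and 8437 (18%) had an unadjusted p under 0.05. Of the 556, 209 had all 3 ammonium libraries above all 3 water libraries, and the highest ammonium library was that of experiment 3 for 261, of experiment 4 for 266 and of experiment 1 for 29. Of the 205, 159 had groups that did not overlap, and the lowest ammonium library was that of experiment 3 for 85, of experiment 4 for 79 and of experiment 1 for 41. Over all tested transcripts, the ammonium libraries lay wholly above the water libraries in 4.38% and wholly below them in 6.01%. The calls used these same values, so a higher share among the calls is no separate evidence.

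The count rested on which libraries entered. Without the ammonium library of experiment 1, which left those of experiments 3 and 4, limma called 3171 of 46960 transcripts, 1934 higher and 1237 lower. Of the 1934, 63.0% had their highest water mean among the neighbouring tissues in cortex and 27.8% in root cap, against 28.3% and 33.2% of all tested. Without the ammonium library of experiment 3 or of experiment 4 the count was 0. Without both of these, experiment 1 alone was compared with 3 water libraries, assuming that it varied like the other groups, and limma called 0, with a lowest adjusted p of 0.0834 and 1840 transcripts at an unadjusted p under 0.05. Leaving out the water library of experiment 1 gave 0 calls, that of experiment 3 gave 2 (both lower) and that of experiment 4 gave 34 (4 higher and 30 lower).

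The differences within experiments did not line up. The difference between the ammonium and the water library of 1 experiment uses libraries that the other experiments do not share. Across 46960 transcripts these differences correlated at r = 0.17 between experiments 1 and 3, -0.29 between 1 and 4, and 0.09 between 3 and 4. At least 1 higher on the log2 scale were 1654 transcripts in experiment 1, 7068 in experiment 3 and 4206 in experiment 4. At least 1 lower were 1720, 5907 and 3155. In all 3 experiments together, 39 transcripts were at least 1 higher (0.083%) and 56 at least 1 lower (0.119%). In 2528 transcripts (5.38%) the difference was at least 1 higher in 1 experiment and at least 1 lower in another. That count needs only 2 experiments and the counts of 39 and 56 need all 3, so their sizes cannot be compared.

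**Figure D4:**
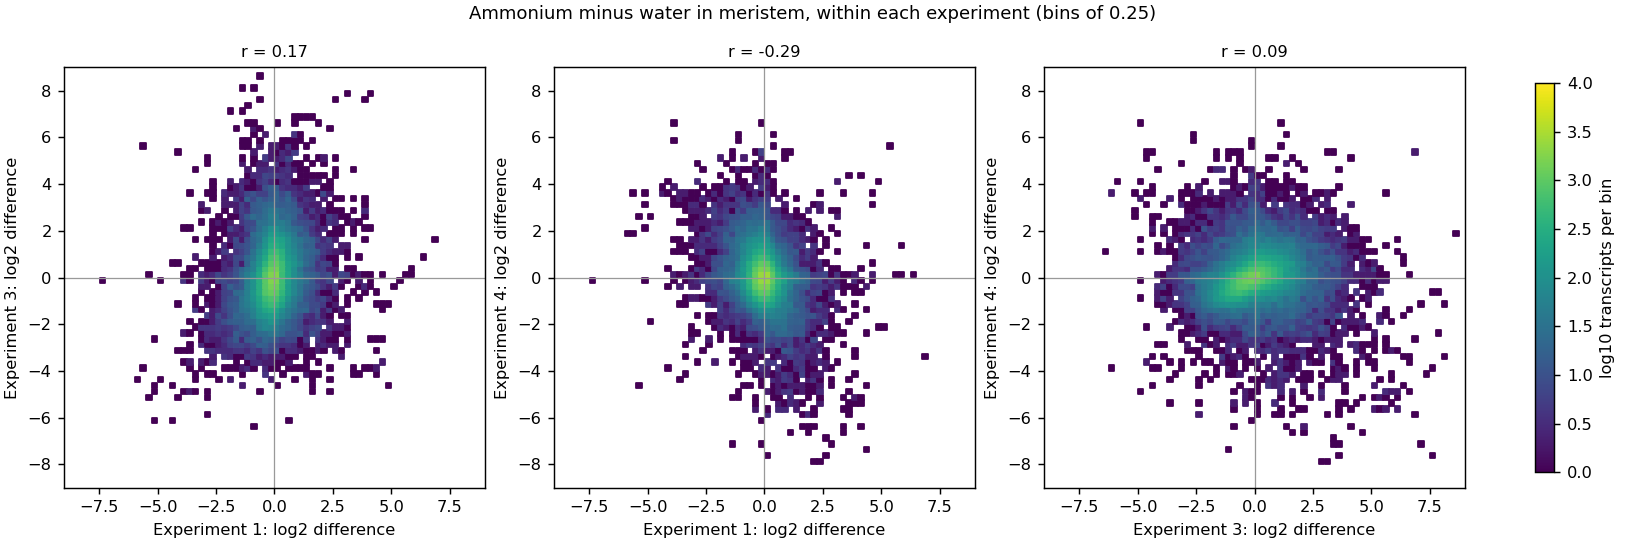
Log2 difference between the ammonium and the water meristem library of 1 experiment plotted against that of another, for 46960 transcripts in bins of 0.25; colour gives the log10 number of transcripts per bin. Experiment 3 spreads widest, and the correlations are 0.17, -0.29 and 0.09.

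In 2059 transcripts (4.38%) all 3 ammonium libraries lay above all 3 water libraries, and in 2824 (6.01%) all 3 lay below. Their median log2 differences were 0.51 and -0.55, and 206 (0.439%) and 335 (0.713%) of them differed by at least 1. The same counts were 2834 higher (6.03%) and 3123 lower (6.65%) in root cap, 2084 (4.44%) and 1997 (4.25%) in vessels, and 2993 (6.37%) and 4341 (9.24%) in cortex. With 3 libraries against 3, many of 46960 transcripts separate in this way without any effect of treatment. The counts are descriptions that show no effect by themselves and were not tested. Fewer libraries raise such counts by construction: leaving out the ammonium library of experiment 1 gave 10203 higher and 10641 lower, and leaving out 1 of the other 5 gave at most 4563 and 5625. Of 46960 tested, ammonium 1 alone lay above all 3 water libraries in 10034 and below them in 12282. A single library often lies outside 3 others without any effect of treatment, so these counts show no effect by themselves.

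A stricter count asked which transcripts lay outside every water library of all 4 tissues, a level that no neighbouring tissue had under water. In 118 transcripts (0.251%) all 3 meristem ammonium libraries exceeded all 12 water libraries, and in 72 (0.153%) all 3 were under them. The same count gave 635 (1.35%) and 702 (1.49%) in root cap, 153 (0.326%) and 141 (0.3%) in vessels, and 792 (1.69%) and 1347 (2.87%) in cortex. Here too transcripts lie outside without any effect of treatment, so the counts show no effect by themselves and were not tested. The gaps were small: the median gap to the nearest water library was 0.05 log2 in both directions, and 7 transcripts above and 1 below had a gap over 0.5. The 118 formed 110 runs of consecutive identifiers and the 72 formed 64. Without the ammonium library of experiment 1 the counts were 604 and 561, without that of experiment 3 they were 542 and 518, and without that of experiment 4 they were 447 and 419. Leaving out the water library of experiment 1 gave 198 and 109. Of 46960 tested, ammonium 1 alone lay above all 12 water libraries in 4989 and below them in 5107. Fewer libraries raise these counts too by construction.

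Transcript pp_58601 had the lowest unadjusted p among transcripts that were higher without overlap and also the widest gap above all water libraries. It held 0, 0 and 0.0229 in the water libraries of experiments 1, 3 and 4, which are 0, 0 and 2 reads, and 1.87, 4.59 and 2.54 with ammonium, which are 151, 365 and 200 reads. It was picked among transcripts without overlap, so that all 3 ammonium libraries stood above the water libraries was set by that rule. The log2 difference was 1.93 (SE 0.29, 95% interval 1.32 to 2.55, limma adjusted p = 0.113, n = 3 per group). In the other tissues it ran from 0.641 to 2.26 with ammonium in cortex, 1.43 to 2.14 in vessels and 2.21 to 6.69 in root cap, while no water library of any tissue exceeded 0.215. The 12 ammonium libraries thus did not overlap the 12 water libraries. Its effect in meristem minus that of the other tissues was 0.32 (SE 0.33, limma adjusted p = 0.880), so no difference between tissues was shown. With every library kept, pp_58601 passed in DESeq2 (adjusted p = 2.34e-08), and in limma with a pseudocount of 0.1 (adjusted p = 0.000635) or after quantile normalization (adjusted p = 0.0430). In limma it also passed with water 4 left out (adjusted p = 0.0390) or ammonium 1 left out (adjusted p = 0.00609). These were 5 of 19 alternatives. It did not pass in edgeR (adjusted p = 0.0845). Nor did it pass in limma with library weights (adjusted p = 0.227), group weights (0.528) or the 6 meristem libraries alone (0.752). Without ammonium 3 and 4 the log2 difference was 1.51 (limma adjusted p = 0.540).

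The second such transcript, pp_92563, held 0.363, 0 and 0 with water and 1.15, 1.12 and 2.28 with ammonium. The groups did not overlap, and the water library of experiment 1, with 26 reads, was the only one above 0. The log2 difference was 1.15 (SE 0.22, limma adjusted p = 0.257, n = 3 per group). Ammonium libraries also stood above those of water in vessels (0.931 to 2.45 against 0 to 0.171), root cap (0.587 to 0.910 against 0 in all 3) and cortex (0.255 to 0.658 against 0 to 0.0717). It passed the threshold when ammonium 1 was left out, and without ammonium 3 and 4 the log2 difference was 0.96.

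Among transcripts that were lower without overlap the lowest unadjusted p belonged to pp_199086. It held 15.5, 7.04 and 7.41 with water and 0.867, 0.126 and 0.774 with ammonium. It was picked among transcripts without overlap, so that each ammonium library was under each water library was set by that rule. The log2 difference was -2.74 (SE 0.45, 95% interval -3.68 to -1.81, limma adjusted p = 0.113, n = 3 per group). Under water this transcript was highest in meristem, with 0.731 to 3.48 in root cap, 0.641 to 3.78 in vessels and 0.486 to 2.46 in cortex, so ammonium 1 and 4 lay within the water range of the neighbouring tissues and ammonium 3 under it. The second, pp_223096, held 4.32, 3.73 and 3.58 with water and 1.58, 0.289 and 0.673 with ammonium. It differed by -1.46 (SE 0.24, limma adjusted p = 0.113, n = 3 per group). Its water levels in root cap (1.05 to 2.04) and cortex (0.832 to 1.98) were also under those of meristem, whereas vessels stood higher (5.95 to 7.50). With ammonium it held 0.255 to 0.815 in root cap, 3.25 to 3.81 in vessels and 0.115 to 0.524 in cortex, so ammonium lay under water without overlap in each of the 4 tissues.

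In the other tissues pp_199086 held 0.179 to 1.05 with ammonium in root cap, 0.0625 to 1.03 in vessels and 0.0164 to 1.06 in cortex, ranges that overlapped those of water. With every library kept, pp_199086 and pp_223096 passed in DESeq2 (adjusted p = 0.0164 and 0.0112) and in limma with a pseudocount of 4 (adjusted p = 0.0439 and 0.0462). In limma both also passed when water 4 or ammonium 1 was left out. These were 4 of 20 alternatives for each. Neither passed in edgeR (adjusted p = 0.287 for both) or in limma on the 6 meristem libraries alone (adjusted p = 0.752 for both). Without ammonium 3 and 4 their log2 differences were -2.47 and -0.91.

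Next to pp_58601, the widest gap above all 12 water libraries was that of pp_195335. It held 0.0139, 0.0758 and 0.0459 with water, which are 1, 7 and 4 reads, and 3.08, 1.26 and 1.64 with ammonium. Ammonium 1 was the highest. The log2 difference was 1.47 (SE 0.31, limma adjusted p = 0.282, n = 3 per group). In vessels it held 0.888 to 3.27 with ammonium and at most 0.0986 with water, whereas in root cap ammonium 1 (0.0975) and ammonium 3, and in cortex ammonium 3 (0.493) alone, stood above the water libraries of the same tissue. With every library kept it passed in DESeq2 (adjusted p = 0.0129), and in limma it passed when ammonium 1 was left out. Without ammonium 3 and 4 the log2 difference was 1.97.

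The widest gaps below all water libraries were those of pp_72944 and pp_212199. The first held 5.97, 9.19 and 4.58 with water and 2.23, 0.855 and 2.39 with ammonium (log2 difference -1.43, SE 0.74, limma adjusted p = 0.438, n = 3 per group). Its water libraries ran from 4.42 to 41.1 over the 4 tissues. Its ammonium libraries reached 23.2 in vessels and 28.0 in cortex, where they overlapped the water libraries. The second held 2.77, 1.36 and 1.62 with water and 0.272, 0.503 and 0 with ammonium (log2 difference -1.20, SE 0.26, limma adjusted p = 0.282, n = 3 per group). Over all 12 water libraries pp_212199 stayed between 1.09 and 2.77, an even level in the 4 tissues. Its ammonium libraries held 0.115 to 1.04 in root cap, 0 to 0.602 in vessels and 0.280 to 0.895 in cortex. When ammonium 1 was left out, pp_212199 passed the threshold and pp_72944 did not. Without ammonium 3 and 4 the log2 differences were -1.17 for pp_212199 and -1.19 for pp_72944.

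**Figure D5:**
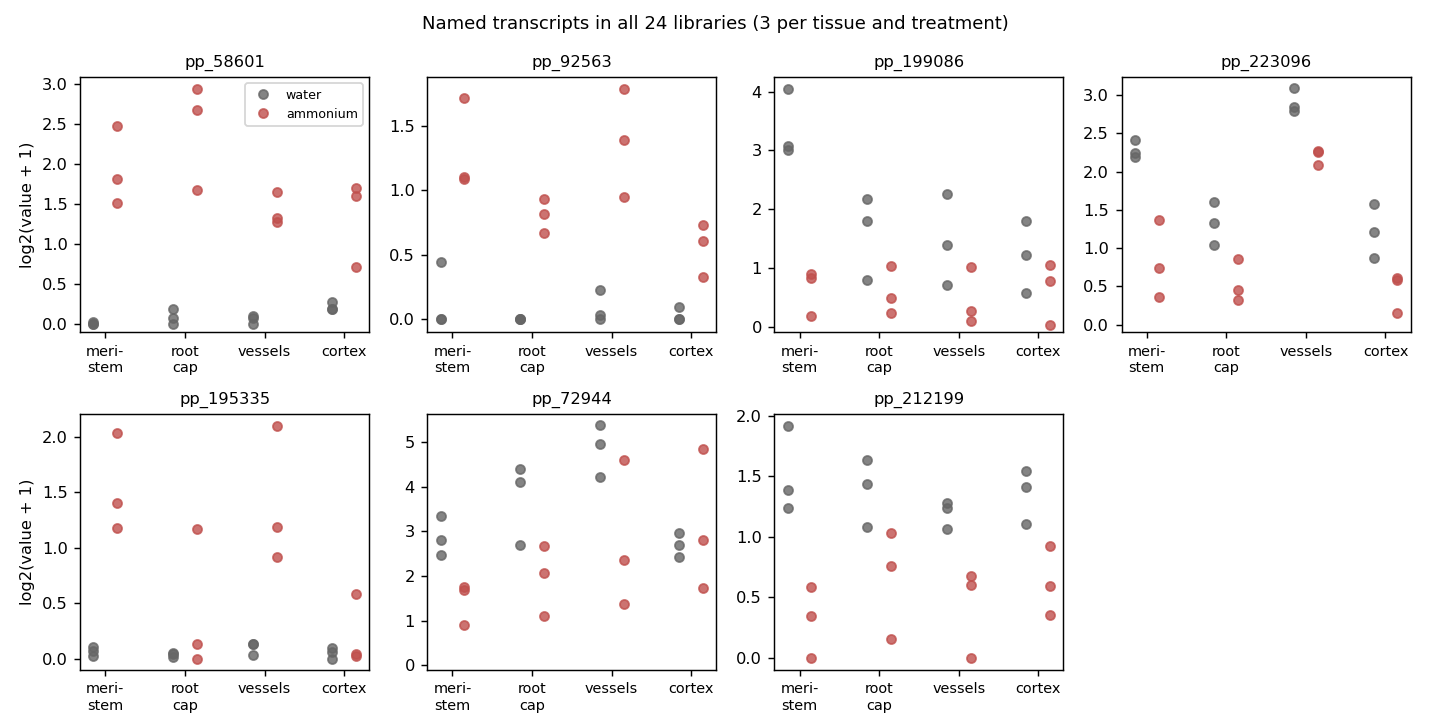
Log2(value + 1) of 7 transcripts in all 24 libraries, 3 per tissue and treatment, water in grey and ammonium in red. For pp_58601 every ammonium library of every tissue lies above every water library (0.641 or more against 0.215 or less), and for pp_199086 the meristem water libraries (7.04 to 15.5) lie above all others.

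Most of the 100 most abundant meristem transcripts had a lower mean with ammonium, and most differed by less than 0.5 on the log2 scale. The 4 highest by mean value over the 6 libraries were pp_235812, pp_124914, pp_109023 and pp_94288. Transcript pp_235812 held 5124, 3731 and 3331 with water and 6200.04, 3777 and 2895 with ammonium, 0.03 higher on the log2 scale (SE 0.33, limma adjusted p = 0.983). Transcript pp_94288 held 4274, 4053 and 3575 with water and 3559, 2957 and 1350 with ammonium, so each ammonium library lay under each water library. Its log2 difference was -0.71 (SE 0.28, 95% interval -1.30 to -0.12, limma adjusted p = 0.380). The log2 differences of pp_124914 and pp_109023 were -0.64 (SE 0.39) and -0.31 (SE 0.38), with overlapping groups. Of these 4, pp_94288 passed the threshold when ammonium 1 was left out. Without ammonium 3 and 4 the log2 differences were 0.63 for pp_235812, 0.044 for pp_124914, 0.60 for pp_109023 and -0.15 for pp_94288. The counts over the 100 that follow use all 3 ammonium libraries and were not made without ammonium 3 and 4. Of the 100 most abundant transcripts, 81 had a lower mean with ammonium, beside 22710 of the 46960 tested. Their median log2 difference was -0.36, beside 0.01 over all tested, with 0 calls. Of the 100, 62 differed by less than 0.5 and 10 by at least 1. In 6 of the 100 the groups did not overlap, all lower with ammonium, beside 6.01% of all tested.

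Single ammonium libraries held transcripts far above or below the other 5. Transcript pp_99015 held 66.0 in ammonium 1 and at most 0.0697 in the other 5 meristem libraries. Its next highest value in the series was 11.3, in the vessel ammonium library of experiment 1. Transcript pp_68990 held 127 in ammonium 3 and at most 0.195 in the other 5. It was also high in the other ammonium libraries of experiment 3, with 292 in vessels, 48.6 in cortex and 24.7 in root cap. Elsewhere in the series its highest value was in the vessel ammonium library of experiment 1, far under these. Transcript pp_151980 held 192 in ammonium 4 and 0.0866 to 1.99 in the other 5. Under water it ran from 248 to 1702 in root cap and 45.5 to 189 in cortex.

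The lower gaps were also those of single libraries. Transcript pp_208934 held 0.545 in ammonium 1 and 15.4 to 211 in the other 5 libraries. Transcript pp_73814 held 5.38 in ammonium 3 and 54.4 to 225 in the others. Under water it ran from 6.17 to 25.5 in cortex, 12.9 to 37.4 in vessels and 34.8 to 102 in root cap. The ammonium library of experiment 3 was also the lowest of its tissue in cortex (1.66) and vessels (6.48), but not in root cap (25.2). Transcript pp_236059 held 1.65 in ammonium 4 and 133 to 1615 in the others. These 6 were named for the gap of 1 library, and no test of them is given.

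With equal weights, the effect in meristem was not shown to differ from that in the other tissues. For each of the 6 sets of libraries that share a treatment and an experiment, the mean of the other 3 tissues was subtracted from meristem, and ammonium sets were compared with water sets. In limma 0 of 46960 transcripts (0%) passed, where the lowest adjusted p was 0.880 and 1264 transcripts (2.69%) had an unadjusted p under 0.05. The lowest unadjusted p for a lower effect in meristem was that of pp_115107. It held 17.8, 14.7 and 11.2 with water and 7.43, 2.44 and 4.62 with ammonium in meristem, a group difference without overlap that passed the threshold of the meristem contrast when ammonium 1 was left out. Its effect in meristem minus the other tissues was -1.79 (SE 0.25, limma adjusted p = 0.880, 6 sets). The lowest for a higher effect was that of pp_236180, which held 2.72, 2.75 and 4.16 with water and 3.57, 5.82 and 4.78 with ammonium, with groups that overlapped. The difference was 1.23 (SE 0.25, limma adjusted p = 0.880, 6 sets). The count depended on how libraries were weighted. Library weights gave the ammonium sets of experiments 1, 3 and 4 weights of 0.268, 4.47 and 0.354. With them limma called 8472 of 46960 transcripts, pp_115107 and pp_236180 among them (adjusted p = 0.0337 for both). Without the ammonium sets of experiments 3 and 4, 128 passed, but there 1 ammonium set was set against 3 water sets, whose spread alone gave the error.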

How the data were processed

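Per the labels' protocols, root tips were cut into 30 µm frozen sections, tissues were laser-microdissected, and low-input cDNA was amplified (SMART-Seq) before paired-end sequencing. bcl2fastq and BWA were used, per the submitters' processing notes. For versions, counting program, reference transcripts, scaling and filter, nothing was given by the labels, the file or those notes. The deposited values are a scaled signal, since the columns sum to between 793680 and 1210367. Dividing by what 1 read is worth gave whole numbers, to within 0.01 reads, for 100% of values in each library, so reads were recovered for the count tests. These tests called 0 (edgeR) and 761 (DESeq2) transcripts.

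R 4.3.3, limma 3.58.1, edgeR 4.0.16, DESeq2 1.42.0 and matplotlib 3.10.9 were used. Values were analysed as log2(value + 1), keeping transcripts that reached 1 in 3 or more libraries (158 removed). The meristem contrast was fitted in limma (empirical Bayes with trend) with 8 groups over 24 libraries, so all groups share 1 spread estimate. Calls needed an adjusted p (Benjamini-Hochberg, over all tested transcripts) under 0.05. The fits were run on simulated data with the same spread setting in all groups, no experiment effect and each library made from its own tissue's mean. That simulation does not cover a wider ammonium group or libraries that resemble another tissue.

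The comparison, lists and tests were chosen with earlier results of these data known. Named transcripts follow a rule: the 2 higher and 2 lower transcripts of lowest unadjusted p without overlap, the 2 widest gaps above and below all water libraries, the 4 most abundant, the widest gap up and down of each ammonium library, and the lowest unadjusted p in each direction of the difference between tissues. Alternatives were other pseudocounts, filters, scalings, weights and tests, an experiment block, and leaving out libraries.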

Additional observations from a re-analysis of the deposited data

Results flagged for a closer look

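For pp_236180, all 3 experiments were higher with ammonium in meristem and lower in the 3 other tissues. The mean log2 differences were -0.86 in root cap, -0.70 in vessels and -0.80 in cortex, against 0.44 in meristem. For pp_115107, all 3 experiments were lower with ammonium in meristem (mean -1.49) and higher in cortex (0.79). Both were named for this contrast between tissues, whose limma adjusted p was 0.880 for each, and the difference from each single tissue was not tested.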

How the results depend on the processing

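Among the values of named transcripts under alternatives, 362 kept their direction and side of the threshold, 22 newly passed it and 17 changed sign. The cause of these changes was not tested. The meristem contrast called 2 transcripts with a pseudocount of 0.1, 2 with 4, 1 after quantile normalization and 761 in DESeq2, and 0 to 3171 when 1 library was left out, the highest without ammonium 1. It called 0 under the other filters, median-of-ratios scaling, both weightings, edgeR and a fit of the 6 libraries alone. The effect in meristem minus the other tissues called 8472 with library weights and 128 without the ammonium sets of experiments 3 and 4, an alternative chosen after seeing the data in which the error comes from the 3 water sets alone. Leaving out both of these ammonium libraries, which also leaves fewer libraries to separate, gave 10034 higher and 12282 lower transcripts without overlap, 4989 above and 5107 below all water libraries, and a vessel list difference of 0.040. Leaving out 1 library gave 2956 to 10203 higher and 3615 to 10641 lower without overlap, 130 to 604 above and 81 to 561 below all water libraries, and -0.98 to 0.20 for the vessel list. Quantile normalization gave 178 above and 24 below all water libraries. The root mean square SD was 0.73 (water) and 1.12 (ammonium) with a pseudocount of 0.1, and 0.29 and 0.53 with 4.

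The sign changed for pp_235812 after quantile normalization (-0.083), with library weights (-0.016) and when 1 library was left out (-0.27 to 0.28). It changed for pp_208934 in edgeR (1.13) and DESeq2 (1.09), and for pp_236059 in edgeR (1.38) and DESeq2 (1.37). Without ammonium 3 and 4, pp_124914 stood at 0.044, pp_109023 at 0.60, pp_68990 at -0.050 and pp_73814 at 0.49. Leaving out 1 library gave -0.0022 to 3.03 for pp_99015, -2.56 to 0.99 for pp_208934, -0.068 to 3.43 for pp_68990 and -3.26 to 1.37 for pp_236059; each was named for the gap of 1 library.

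The experiment number was not taken to pair libraries: in meristem the deviations of same-numbered libraries correlated at 0.25, -0.071 and -0.026 (experiments 1, 3 and 4), in root cap at -0.11, -0.34 and -0.33, in vessels at -0.25, 0.25 and -0.18, and in cortex at -0.22, 0.31 and 0.35. A replicate block called 0 transcripts over all 24 libraries (limma, lowest adjusted p 0.0884, 7030 at an unadjusted p under 0.05).

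In the main limma fit, with 3 libraries per group, a log2 difference of -2.74 (pp_199086) did not pass the threshold (adjusted p = 0.113). It passed in limma with a pseudocount of 4 (adjusted p = 0.0439) and without ammonium 1 (adjusted p = 0.0117). Of the 3 ammonium libraries, 2 were closest to another tissue's mean, and the part of this was not tested.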
